A study of Mus musculus with 25 samples.

Results

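The genes described here are linked to restraint of the T cell receptor signal. They are 3 diacylglycerol kinases (Dgka, Dgkz and Dgkh) and 7 genes tied to T cell anergy (Cblb, Egr1, Egr2, Egr3, Rnf128, Itch and Ndrg1). When the receptor binds antigen, a phospholipase makes diacylglycerol, a membrane lipid that recruits RasGRP1 and protein kinase C theta, and diacylglycerol kinases end that signal by turning the lipid into phosphatidic acid. Anergy is a state in which a T cell that met antigen no longer responds to it. Egr2 and Egr3 are transcription factors that switch on anergy genes downstream of NFAT, Egr1 is their immediate-early relative, and Cbl-b (Cblb), GRAIL (Rnf128) and Itch are E3 ubiquitin ligases that mark signalling proteins for removal. Ndrg1 is an anergy factor under Egr control.

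Chromatin accessibility at these genes was measured by ATAC-seq, in which a transposase cuts open DNA. A peak, an interval of open chromatin, was taken as belonging to 1 of the 10 genes if that gene had the nearest protein-coding start site to the peak's midpoint or if the midpoint lay in the gene body (GENCODE vM39, GRCm39). This gave 45 of 13527 peaks. Of these, 42 had a listed gene as their nearest start, and the 3 Dgka peaks were taken by gene body alone, because the start of Pym1 lay closer. A nearest gene is a position, not evidence that the peak acts on that gene. Cblb had 21 peaks, Egr3 5, Egr2 4, Dgka, Dgkz, Dgkh and Egr1 3 each, and Rnf128, Itch and Ndrg1 1 each. The genes were picked with earlier results of these data known. The peaks were chosen by position among intervals that the authors had called in at least 1 of the 7 groups of these same libraries, so a peak found in 1 group's list alone had to be high there. Of the 45 peaks 7 were in 1 list (15.6%, beside 16.7% of all peaks), 5 of them in that of S+P C5, namely Dgkh at +33.7 and +45.1 kb, Egr2 at -51.9 and -37.7 kb and Rnf128. Where a peak was in the list of the higher group compared, and otherwise in none or only in that of another subset with the same graft and pregnancy history, the difference is a description and is given without a p. This holds too where only another subset of that history listed the peak. It also holds between mice with and without a graft where the higher group listed the peak and all its lists were of that graft status. A peak in a Dgkh intron was already known to have the strongest gain in 1 comparison, S+P C5 vs S+P C4, so its values there, and in the other comparisons with those libraries, are described without a p. It remains in the counts of called peaks. Those of single comparisons with these libraries are also given without it, while counts over several comparisons and counts under alternatives include it.

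The cells were CD8+ T cells from the spleen and lymph nodes of individual adult female C57BL/6 mice, sorted with an OVA:H-2Kb tetramer so that they recognized an antigen shared by the fetus and a skin graft (T_FGS). Naive mice (3 libraries) had met neither, and Sensitized mice (4 libraries) had received an allogeneic skin graft. N+P mice had a semi-allogeneic pregnancy alone, and S+P mice had the graft first and then the pregnancy. Their cells were sorted post-partum by PD1 and CD73: C1 (N+P, 3 libraries) and C4 (S+P, 4 libraries) were PD1-, C5 (N+P, 3 libraries, and S+P, 4 libraries) was PD1+CD73+, and C7 (S+P, 4 libraries) was PD1+CD73-. The tetramer reads 1 peptide, so the libraries show one specificity among all cells that meet the graft or fetus. Start-site peaks were present at 4 of 5 CD8 T cell marker genes, with 177 to 1084 normalized counts per library, and at 0 of 14 marker genes of CD4 T, B, myeloid, NK and erythroid cells. Of these 14, 12 had no peak at all, while 2 peaks were nearest to or within Cd4 and 7 were at the NK gene Klrb1c. The fifth CD8 T cell gene, Trac, was not matched in the protein-coding annotation.

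Several libraries did not lie with their own group. By Pearson's r across all peaks, 10 of 25 libraries were nearest to the mean of another group. The mean nearest to Sensitized replicates 3 and 4 was that of N+P C5 (r = 0.973 and 0.955), and for Sensitized replicate 1 it was that of S+P C4 (r = 0.931). S+P C4 replicate 1 was also nearest to N+P C5 (r = 0.923). Results against Sensitized are therefore given with and without replicates 3 and 4, and results against S+P C4 with and without its replicate 1, where this changes a call or moves a value by over 1.5 times. The part of mouse, sort or preparation in these positions was not tested. Library totals ran from 2430890 to 25419715 counts, with a median of 8197552. Values below are normalized counts, that is counts in a peak divided by the library's size factor. Errors are SD for group means and SE for log2 fold changes. A peak was called when its adjusted p was under 0.1 and its absolute log2 fold change over 0.9 (DESeq2 Wald test, Benjamini-Hochberg over all 13527 peaks, 1 fit over 25 libraries). A called peak with the higher level in the group named first had opened, and one with the lower level had closed. A change in the share of cells with an open site and a change in openness per cell cannot be told apart in these bulk libraries.

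The central 300 bases of the 5 peaks on which most of the results turn are shown first, on the plus strand of GRCm39. They are the intron peak of Dgkh that gained most, the intron peak of Cblb that gained most, the peak upstream of Egr2 with the widest range of group means, and the pair of Cblb peaks with the largest losses in S+P C7 vs Sensitized, 1 upstream and 1 in an intron. Capitals mark matches, on either strand, to core letters of transcription factor motifs that are active in T cells: NFAT (TGGAAA), AP-1 (TGANTCA), RUNX (TGTGGTT), TCF/LEF (TTCAAAG), T-box (GGTGTGA), EGR (GCGNGGGCG), NR4A (AAGGTCA), ETS (CCGGAAG), NF-kB (GGGANTTCC) and CRE (TGACGTCA). N stands for any base.
Dgkh intron, chr14:78936679-78936978: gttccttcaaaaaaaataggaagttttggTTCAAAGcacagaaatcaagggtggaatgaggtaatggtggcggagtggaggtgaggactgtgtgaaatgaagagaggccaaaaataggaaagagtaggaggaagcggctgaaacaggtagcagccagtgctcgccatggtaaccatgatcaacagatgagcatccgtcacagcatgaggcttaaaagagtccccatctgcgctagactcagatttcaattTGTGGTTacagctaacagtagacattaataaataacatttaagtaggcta
Cblb intron, chr16:51928240-51928539: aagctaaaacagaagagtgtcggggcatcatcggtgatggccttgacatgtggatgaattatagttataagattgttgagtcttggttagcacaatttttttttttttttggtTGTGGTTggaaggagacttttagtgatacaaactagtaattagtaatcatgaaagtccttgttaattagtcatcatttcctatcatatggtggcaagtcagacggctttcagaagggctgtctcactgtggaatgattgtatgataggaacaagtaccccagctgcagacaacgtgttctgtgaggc
Egr2 upstream, chr10:67319242-67319541: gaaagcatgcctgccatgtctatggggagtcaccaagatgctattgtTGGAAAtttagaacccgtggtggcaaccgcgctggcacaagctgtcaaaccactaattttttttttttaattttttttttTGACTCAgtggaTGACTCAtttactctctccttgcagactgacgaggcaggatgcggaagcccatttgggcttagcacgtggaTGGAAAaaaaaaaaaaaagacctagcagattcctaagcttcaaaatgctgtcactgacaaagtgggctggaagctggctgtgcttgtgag
Cblb upstream, chr16:51827434-51827733: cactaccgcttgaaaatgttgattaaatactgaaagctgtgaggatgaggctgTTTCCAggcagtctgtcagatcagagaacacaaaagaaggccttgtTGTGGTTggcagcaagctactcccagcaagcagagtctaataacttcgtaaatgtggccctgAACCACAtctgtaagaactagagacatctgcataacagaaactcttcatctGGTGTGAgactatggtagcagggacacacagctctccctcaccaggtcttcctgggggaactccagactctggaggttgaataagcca
Cblb second intron peak, chr16:51963585-51963884: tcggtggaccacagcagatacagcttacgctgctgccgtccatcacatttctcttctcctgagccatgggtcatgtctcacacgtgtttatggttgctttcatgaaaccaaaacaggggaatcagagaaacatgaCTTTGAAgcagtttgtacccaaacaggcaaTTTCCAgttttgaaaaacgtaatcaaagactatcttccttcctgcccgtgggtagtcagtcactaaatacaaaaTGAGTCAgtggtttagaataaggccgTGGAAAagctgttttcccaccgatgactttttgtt

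The windows differed in the letters they held. The Dgkh window had 1 RUNX and 1 TCF/LEF match, and the first Cblb intron window had 1 RUNX match alone. The Egr2 window had 2 NFAT and 2 AP-1 matches, with both AP-1 matches between the NFAT ones. The upstream Cblb window had 2 RUNX, 1 NFAT and 1 T-box match, and the second Cblb intron window had 2 NFAT, 1 AP-1 and 1 TCF/LEF match. Matches of different motifs did not overlap in these 5 windows. None of the 12 peaks described below as called is a promoter peak, so the scale for these letters is the 5857 peaks outside promoters, meaning farther than 1000 bp from a protein-coding transcript start. Their central 300 bases held an NFAT match in 25.5%, RUNX in 20.1%, AP-1 in 15.9%, TCF/LEF in 8.9%, T-box in 7.7%, ETS in 4.73%, EGR in 1.18%, NR4A in 4.88%, NF-kB in 2.32% and CRE in 1.3%. Over all 13527 peaks the share was 18.1% for NFAT, 10.8% for RUNX and 9.2% for AP-1. Of the 12 called peaks 7 held the RUNX letters, namely 4 of the 7 that opened and 3 of the 5 that closed, beside 7 of the 33 peaks never called (21.2%). The 33 include all 9 promoter peaks, which held no RUNX letters, so the called peaks and the 33 are not on the same scale. TCF/LEF letters were in 2 of the 7 and 2 of the 5, beside 3 of the 33, and NFAT letters in 2 and 2, beside 11. AP-1 letters were in 1 of the 7 and 1 of the 5, beside 1 of the 33. None of the 12 held the EGR, NR4A, ETS or NF-kB letters. A match is a description of the letters, not of a bound site, and the absence of a match says nothing of a factor.

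Across the 7 groups the 45 peaks fell into a few that moved widely and many that did not. Of the 45, 12 (26.7%) were called in at least 1 of 12 comparisons, beside 22% of all peaks and 44.4% of peaks outside promoters. They were all 3 Dgkh peaks, 7 of 21 Cblb peaks and 2 of 4 Egr2 peaks. No peak of Dgka, Dgkz, Egr1, Egr3, Rnf128, Itch or Ndrg1 was called. The listed genes had few promoter peaks, meaning peaks within 1000 bp of a protein-coding transcript start (9 of 45, 20%, beside 56.7% of all peaks), and none of the 9 was called. The median range of log2 group means was 0.67 for the 45 peaks and 0.55 for all peaks.

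**Figure D1:**
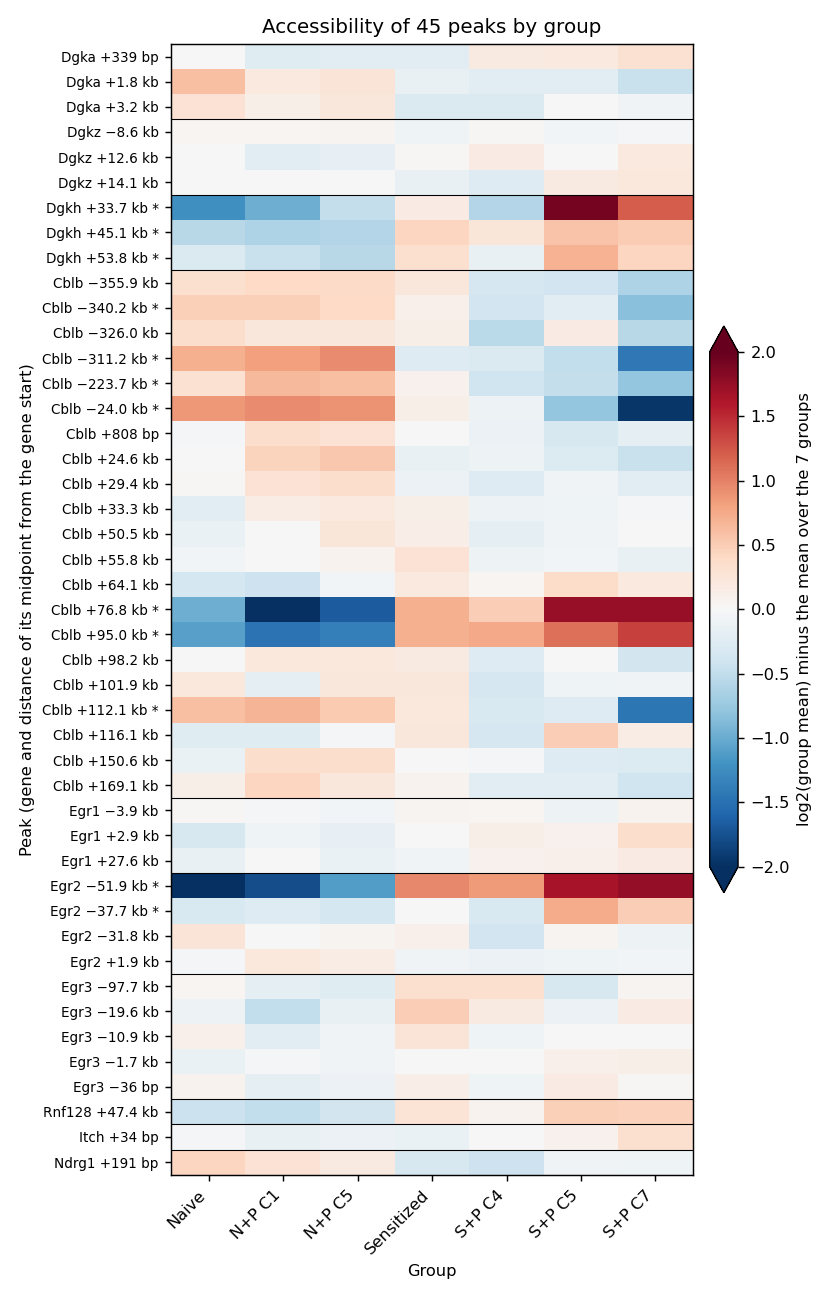
Each row is 1 of the 45 peaks, named by its gene and the distance of its midpoint from the gene start, and each column is a group. Colour is the log2 group mean minus the mean over the 7 groups (scale clipped at the ends shown), and an asterisk marks the 12 called peaks. Dgkh, the Cblb intron peaks at +76.8 and +95.0 kb and Egr2 at -51.9 kb are highest in S+P C5 or S+P C7, while the Cblb peaks at -311.2 and -24.0 kb are lowest in S+P C7. Under loess scaling the Dgkh peak at +45.1 kb is lower, not higher, in S+P C5 than in N+P C5.

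Whether sensitization alone changed these genes was asked by Sensitized vs Naive. Here 6 of 45 peaks were called (13.3%, beside 8.62% of all peaks), 5 opened and 1 closed. This was 16.7% of the 36 listed-gene peaks outside promoters, beside 18.4% of all such peaks. Dgkh at +33.7 and +45.1 kb, Cblb at +76.8 and +95.0 kb and Egr2 at -51.9 kb opened, and Cblb at -311.2 kb closed. The median log2 fold change was 0.03 over the 45 peaks and -0.01 over all peaks. Without Sensitized replicates 3 and 4 the count was 11 of 45 (24.4%), beside 15.2% of all peaks, and outside promoters it was 10 of 36 (27.8%, beside 32%).

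Pregnancy in mice without a graft moved none of the 45 peaks past the thresholds with all libraries in. N+P C1 vs Naive called 0 of 45 (0.00739% of all peaks), and 4 (8.89%, beside 19% of all peaks) had an unadjusted p under 0.05. N+P C5 vs Naive also called 0 (0.00739% of all peaks), with 6 (13.3%, beside 17.5%) at an unadjusted p under 0.05. The PD1+CD73+ cells against the PD1- cells of these mice, N+P C5 vs N+P C1, gave 0 of 45 (0% of all peaks), with 1 (2.22%, beside 2.28%) at an unadjusted p under 0.05. edgeR's quasi-likelihood test called 0 of 45 in each of these 3 comparisons. DESeq2's filter on low means left 31 of the 45 peaks without an adjusted p in the comparison of N+P C1 with Naive and 33 in that of N+P C5, and with that filter off the counts were 0 as well, beside 0.288% of all peaks for N+P C1 and 0.177% for N+P C5. Without Naive replicate 3, 1 of the 45 was called for N+P C1 against Naive, beside 1.18% of all peaks, namely Cblb at +76.8 kb, which closed (-1.36, adjusted p = 0.0996). For N+P C5 2 were called, beside 1.16% of all peaks, Egr2 at -51.9 kb (1.57, adjusted p = 0.0424) and Dgkh at +33.7 kb (1.05, adjusted p = 0.0388), and both opened.

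Pregnancy after sensitization was read against the Sensitized group. S+P C4 vs Sensitized called 0 of 45 peaks (0.858% of all peaks), with 11 (24.4%, beside 18.7%) at an unadjusted p under 0.05 and 0 called by edgeR. Without S+P C4 replicate 1 it called 1 (beside 1.73% of all peaks), Dgkh at +33.7 kb, which closed (-0.92). S+P C5 vs Sensitized called 2 (4.44%, beside 6.74% of all peaks), Dgkh at +33.7 kb and Cblb at +76.8 kb, and both opened. This was 5.56% of the 36 listed-gene peaks outside promoters, beside 14.7% of all such peaks. S+P C7 vs Sensitized called 6 (13.3%, beside 11.9% of all peaks). This was 16.7% of the 36 listed-gene peaks outside promoters, beside 24.6% of all such peaks. The same pair opened there, and Cblb at -340.2, -311.2, -24.0 and +112.1 kb closed. All 3 comparisons share the 4 Sensitized libraries. When Sensitized replicates 3 and 4 were left out, S+P C4 had 1 called peak (beside 2.31% of all peaks), Dgkh at +33.7 kb, which closed. S+P C5 then had 2 (beside 3.25%), of which Dgkh at +33.7 kb opened and Egr3 at -19.6 kb closed, and S+P C7 had 1 (beside 6.96%), Cblb at +112.1 kb, which closed.

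The comparison of C5 cells between mice with and without a graft, S+P C5 vs N+P C5, called 10 of 45 peaks (22.2%, beside 17.2% of all peaks and 35.4% of peaks outside promoters), 7 opened and 3 closed. All 10 lie outside promoters, where they were 27.8% of 36. The 3 Dgkh peaks, the Cblb intron peaks at +76.8 and +95.0 kb and the Egr2 peaks at -51.9 and -37.7 kb opened, although Dgkh at +45.1 kb turned direction under loess offsets (-0.31 on the log2 scale). The Cblb peaks at -311.2, -223.7 and -24.0 kb closed. Library values of 23 of the 45 peaks did not overlap between the groups (51.1%, beside 62.9% of all peaks).

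Among the S+P cells the PD1+ subsets were set against the PD1- cells and each other. S+P C5 vs S+P C4 called 3 of 45 peaks (6.67%, beside 5.12% of all peaks), all opened. The Dgkh peak at +33.7 kb among them was known in advance, and without it the count was 2 of 44 (4.55%), Cblb at +76.8 kb and Egr2 at -37.7 kb. Outside promoters it was 2 of 35 (5.71%), beside 11.2% of all such peaks. Without S+P C4 replicate 1 the Cblb call was lost and Cblb at +116.1 kb, named after its values were seen, was called (0.91, adjusted p = 0.000476). S+P C7 vs S+P C4 called 5 (11.1%, beside 7.73% of all peaks), with Dgkh at +33.7 kb and Cblb at +76.8 kb opened and Cblb at -311.2, -24.0 and +112.1 kb closed. This was 13.9% of the 36 listed-gene peaks outside promoters, beside 16.3% of all such peaks. Without S+P C4 replicate 1 this count was 2, Dgkh at +33.7 kb and Cblb at -24.0 kb, beside 5.75% of all peaks. S+P C7 vs S+P C5 called 2 (4.44%, beside 2.38% of all peaks), Cblb at -311.2 and +112.1 kb, both lower in C7. This was 5.56% of the 36 listed-gene peaks outside promoters, beside 5.14% of all such peaks. With the replicate number as a block Cblb at -24.0 kb was called as well, and the count was 3, beside 3.33% of all peaks. The C5 interaction, which is the change from Sensitized to S+P C5 minus the change from Naive to N+P C5, called 2 (4.44%, beside 5.97% of all peaks). These were Dgkh at +33.7 kb and Cblb at +76.8 kb, 5.56% of the 36 listed-gene peaks outside promoters, beside 11.2% of all such peaks, and the count was 0 without Sensitized replicates 3 and 4 (beside 2.36% of all peaks). Without Dgkh at +33.7 kb, whose high S+P C5 and low S+P C4 values were known, the counts over the other 44 peaks were 1 in S+P C5 vs Sensitized, 9 for S+P C5 vs N+P C5, 4 in S+P C7 vs S+P C4 and 1 in the interaction.

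These counts are partly set by how the peaks entered the table. The called peaks that were listed by the authors in the higher group, and otherwise at most in another subset of the same history, were 2 of 2 in S+P C5 vs Sensitized (43.8% of all peaks called there), 1 of 6 in S+P C7 vs Sensitized (21%) and 6 of 10 for S+P C5 vs N+P C5 (38.7%). They were also 3 of 3 in S+P C5 vs S+P C4 (53.2%), 1 of 5 in S+P C7 vs S+P C4 (12.3%), 0 of 2 in S+P C7 vs S+P C5 (27%), 0 of 6 in Sensitized vs Naive (9.35%) and 2 of 2 in the interaction (43.7%). These shares take Sensitized and S+P as different histories. All peaks that opened in Sensitized vs Naive were in lists of grafted groups alone, Cblb at +95.0 kb in that of Sensitized too and the others in S+P lists only. Dgkh at +53.8 kb and Cblb at +95.0 kb, called for S+P C5 vs N+P C5 but not among the 6, were also in lists of grafted groups alone.

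Dgkh encodes diacylglycerol kinase eta. Its 3 peaks lie in introns, 33.7, 45.1 and 53.8 kb downstream of the gene start, and the start itself had no peak. The peak at +33.7 kb (chr14:78936517-78937142) contains the first sequence above. Naive libraries held 35.8, 29.5 and 53.6 normalized counts, N+P C1 64.2, 42.6 and 35.8, and N+P C5 79.5, 52.1 and 68.5. Sensitized libraries held 108, 132, 92.9 and 82.4, and S+P C4 85.1, 42.8, 60.8 and 59.6. S+P C5 libraries held 348, 378, 362 and 318, and S+P C7 265, 266, 204 and 125. All 4 S+P C5 libraries lay above every other library, S+P C7 had the next highest mean, and all 4 Sensitized libraries lay above every Naive library.

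Sensitized was 2.57-fold above Naive at this Dgkh peak (log2 fold change 1.36 ± 0.29, adjusted p = 6.67e-05), and S+P C7 was 2.06-fold above Sensitized (1.04 ± 0.25). The S+P C7 difference is given without a p, because S+P C5, another subset of the same history, was the only group that listed the peak. The comparisons with S+P C5 or S+P C4 use the libraries for which the peak was known, so their values are given as a description, with no p. The log2 difference was 1.76 ± 0.25 between S+P C5 and Sensitized (3.39-fold), 2.39 ± 0.28 over N+P C5 for the S+P C5 libraries (5.24-fold) and 1.83 ± 0.27 between S+P C7 and S+P C4 (3.56-fold). S+P C7 differed from S+P C5 by -0.72 ± 0.25. The group means were 351 ± 25.5 for S+P C5 libraries and 62.1 ± 17.4 for those of S+P C4 (SD, n = 4 each). Sensitized replicates 3 and 4 were the lowest of the 4. Without them S+P C5 exceeded Sensitized by 1.55 on the log2 scale, and S+P C7 by 0.83, under the fold threshold.

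The mean of this Dgkh peak over the libraries was higher than that of only 1.6% of peaks. With loess offsets, which remove each library's trend of log count on mean log count, it was no longer called in S+P C7 vs Sensitized (0.03) or Sensitized vs Naive (0.08, adjusted p = 0.902). The differences of S+P C5 were then 0.81 from Sensitized and 0.29 from N+P C5, and that between S+P C7 and S+P C4 was 0.94. The interaction was 1.03 ± 0.41, 0.21 with loess offsets and 0.82 without Sensitized replicates 3 and 4. Its call was lost in both, and when any of these libraries was left out: replicates 2 and 3 of N+P C5, replicate 2 of S+P C5, replicate 4 of Sensitized and replicate 3 of Naive.

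The other pair of Dgkh peaks moved less. At +53.8 kb (chr14:78916328-78917026) N+P C5 libraries held 164, 145 and 224 normalized counts, Sensitized 372, 436, 236 and 252, and S+P C4 235, 197, 296 and 215. The S+P C5 libraries gave 374, 464, 462 and 396, and S+P C7 343, 323, 422 and 317. The peak was in the lists of Sensitized, S+P C5 and S+P C7 alone. Its differences from mice without a graft are therefore partly set by that choice and are given without a p. Every S+P C5 library was above every N+P C5 library (1.25 ± 0.21), and the peak was called there under every alternative run. Sensitized exceeded Naive by less than the fold threshold (0.60 ± 0.21), and by 0.92 without Sensitized replicates 3 and 4, which was called. At +45.1 kb (chr14:78925215-78925539) the mean was 82.9 ± 10.3 in Naive (SD, n = 3), 164 ± 59.2 in Sensitized, 181 ± 25.4 in the S+P C5 libraries and 175 ± 28.7 in those of S+P C7 (SD, n = 4 each). It opened in Sensitized vs Naive (0.98 ± 0.29, adjusted p = 0.00769), where loess offsets gave 0.11, adjusted p = 0.845. That call was also lost without Naive replicate 2 or Sensitized replicate 1 or 2 (0.76 to 0.89). Its difference for S+P C5 vs N+P C5, a description because the peak was in the S+P C5 list alone, was 1.15 ± 0.30, and loess offsets reversed it (-0.31).

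Dgka and Dgkz encode the alpha and zeta kinases, the main diacylglycerol kinases of T cells, and had no called peak. The 3 Dgka peaks lie within 3.2 kb of the gene start. Dgka at +1.8 kb, named after its values were seen, held 1041, 1019 and 781 in Naive and 463, 556, 628 and 602 in Sensitized. Every Sensitized library was lower, by less than the fold threshold (-0.75 ± 0.20, adjusted p = 0.00173). The Dgka peak at +3.2 kb, which covers an internal transcript start, held 514, 501 and 426 in Naive and 304, 275, 372 and 334 in Sensitized (-0.57 ± 0.13, adjusted p = 0.000224, under the fold threshold). The 3 Dgkz peaks stayed between 219 and 512 in every library, with ranges of log2 group means from 0.14 to 0.47. Whether the 3 kinase genes differ in these changes was not tested.

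**Figure D2:**
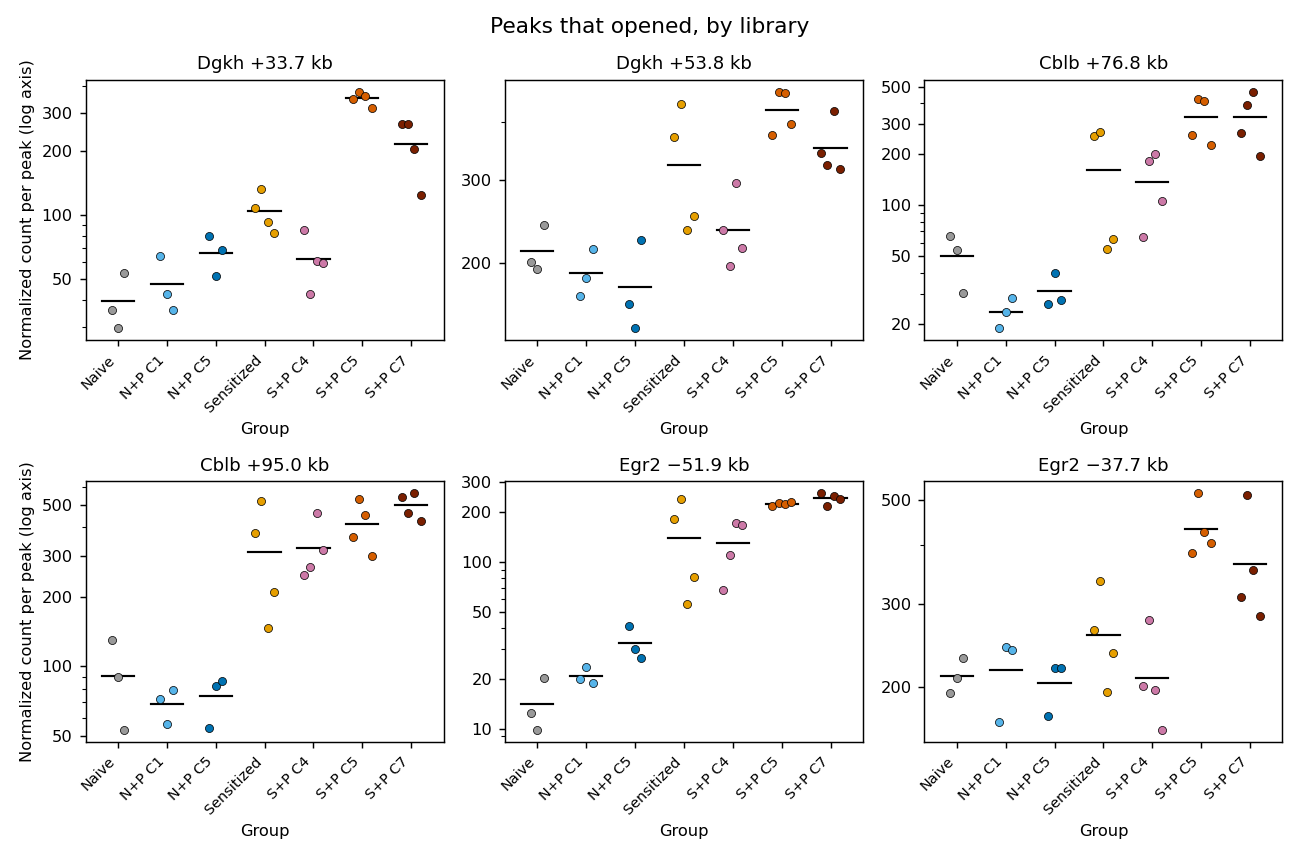
Normalized count per library (log axis) in 6 of the 7 peaks that opened, by group, with a point for each library and a line for the group mean. All 4 S+P C5 libraries of the Dgkh peak at +33.7 kb lie above all other libraries, and in the Cblb peak at +76.8 kb 2 of 4 Sensitized libraries lie among the Naive ones.

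Cblb, the E3 ligase gene whose loss lets T cells respond without costimulation, had the most peaks and moved in both directions. Of its 21 peaks, 6 lie upstream of the gene, 1 at its start and 14 in introns. The intron peaks at +76.8 and +95.0 kb opened, while 4 of the 6 upstream peaks and the intron peak at +112.1 kb closed. In S+P C7 vs Sensitized all 6 upstream peaks had lower values, with a median log2 fold change of -0.90. Of these 3 were called, beside 11.9% of all peaks and 24.6% of peaks outside promoters. With Sensitized replicates 3 and 4 left out all 6 still had lower values and the median was -0.60. Then 0 were called, beside 6.96% of all peaks and 14.8% of peaks outside promoters. The 14 intron peaks had a median of -0.20 with all libraries in, with 3 higher and 11 lower, and of 0.02 without those 2, with 7 higher and 7 lower. For S+P C5 vs N+P C5 all 6 upstream peaks again had lower values, with a median of -0.91. Of these 3 were called, beside 17.2% of all peaks and 35.4% of peaks outside promoters. The median of all peaks was 0.0027 in the first comparison and 0.0046 in the second.

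**Figure D3:**
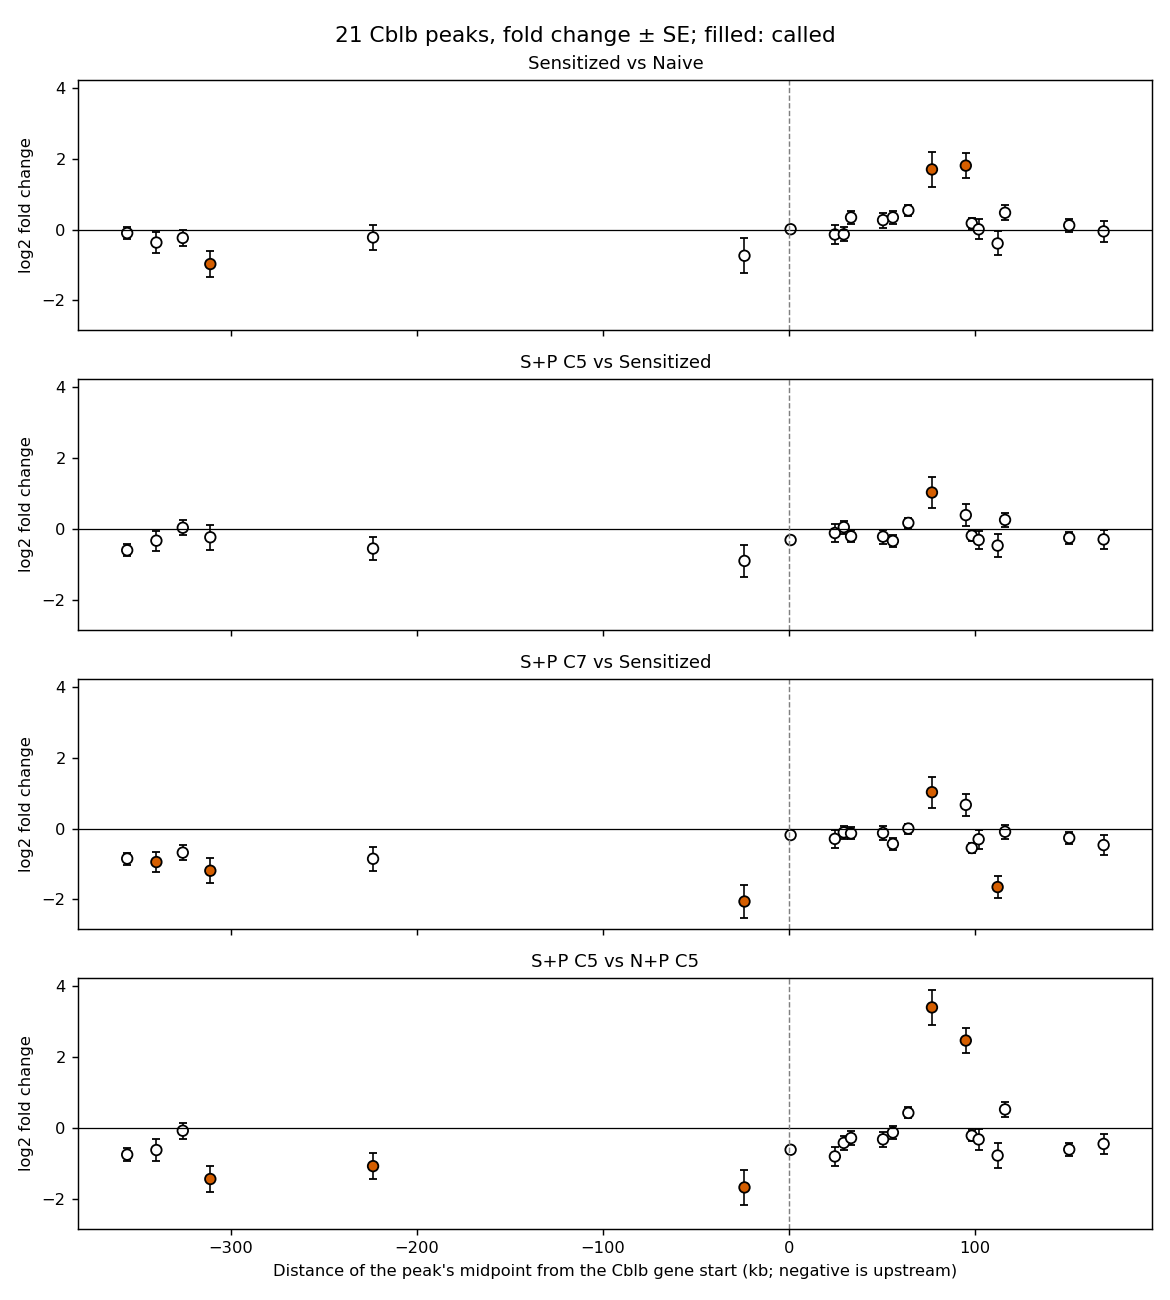
Log2 fold change with its SE (vertical axis) of the 21 Cblb peaks by distance of the peak midpoint from the gene start in kb (horizontal axis), in 4 comparisons, with filled points for called peaks. The 6 upstream peaks lie below 0 in each comparison except for 1 of them in S+P C5 vs Sensitized, where 3 of the 6 lie above 0 without Sensitized replicates 3 and 4, and the intron peaks at +76.8 and +95.0 kb lie above 0 in all 4.

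The Cblb intron peak at +76.8 kb (chr16:51928121-51928660) contains the second sequence above. Naive libraries held 66.1, 54.1 and 30.3 normalized counts, N+P C1 18.8, 23.6 and 28.3, and N+P C5 26.2, 39.8 and 27.7. Sensitized libraries held 256, 271, 55.04 and 63.5, and S+P C4 64.7, 182, 199.5 and 105. S+P C5 libraries held 261, 422, 409 and 226, and S+P C7 265, 388, 467 and 195. Sensitized replicates 1 and 2 lay within the range of S+P C5, and replicates 3 and 4 within that of Naive.

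This peak was in the lists of S+P C5 and S+P C7 alone, so its differences involving them are given without a p. It was 10.6-fold higher in S+P C5 than in N+P C5 (3.405 ± 0.50), past the call thresholds under every alternative run. It rose 3.24-fold in Sensitized over Naive (1.70 ± 0.49, adjusted p = 0.00549), by 2.41 on the log2 scale without Sensitized replicates 3 and 4, and by 0.34 with loess offsets, under the threshold. Against Sensitized the difference was 1.03 ± 0.44 for either S+P group, C5 or C7, both past the call thresholds. Without Sensitized replicates 3 and 4 neither was called (0.32 and 0.32), nor was either with loess offsets (0.32 and 0.27) or with the compared groups alone (1.03 and 1.04). With 1 library left out, the S+P C5 call was lost without Sensitized replicate 3 or 4 or S+P C5 replicate 2 or 3 (0.74 to 0.91), and the S+P C7 call without Sensitized replicate 3 or 4 or S+P C7 replicate 2 or 3 (0.74 to 0.93). Against S+P C4, each of these groups differed by 1.24 ± 0.45, and neither call held with every library left out in turn or with loess offsets (0.49 and 0.44). The call for C5 was lost without S+P C4 replicate 1 or 4 or S+P C5 replicate 2 or 3 (1.03 to 1.13), and that for C7 without S+P C4 replicate 1 or S+P C7 replicate 2 or 3 (1.02 to 1.15). The means in S+P C7 and S+P C5 were 329 ± 122 and 329.5 ± 100.5 (SD, n = 4 each), with a 95% interval of -0.87 to 0.86 for the log2 difference. That interval takes the libraries as unpaired, although over all peaks S+P C5 and S+P C7 libraries with the same number correlated in their deviations from group means (r from 0.522 to 0.771). The interaction was 1.71 ± 0.70, and 0.99, not called, without Sensitized replicates 3 and 4. Loess offsets gave 1.08, not called. Its call was also lost without Naive replicate 1 or 2, N+P C5 replicate 1 or 3, Sensitized replicate 3 or 4 or S+P C5 replicate 2 or 3 (1.42 to 1.64).

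The neighbouring Cblb intron peak at +95.0 kb (chr16:51946115-51947023) separated mice with and without a graft. Naive libraries held 129.5, 89.5 and 53.0, N+P C5 54.3, 82.2 and 86.6, and Sensitized 378, 519, 146 and 209. S+P C4 libraries held 248, 269, 461 and 319, S+P C5 364, 528, 453 and 301, and S+P C7 539, 463, 562 and 426. Every library of grafted mice was above every library of mice without a graft. The peak opened in Sensitized vs Naive (1.80 ± 0.35) and for S+P C5 vs N+P C5 (2.47 ± 0.35), in both under every alternative run. It was in the lists of Sensitized, S+P C5 and S+P C7 alone. This separation is therefore partly set by how the peak entered the table, and both differences are given without a p.

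Among the Cblb peaks that closed, the one 24.0 kb upstream (chr16:51827076-51828093), which contains the fourth sequence above, had the widest range of group means. It held 678, 569 and 701 in Naive, 566, 756 and 738 in N+P C1, and 479, 724 and 794 in N+P C5. Sensitized libraries held 134, 206, 642 and 572, and S+P C4 527, 356, 175 and 267. The S+P C5 libraries gave 321, 184, 163 and 163, and S+P C7 179, 61.3, 59.6 and 71.2. Sensitized replicates 3 and 4 lay within the Naive range, and 3 of 4 S+P C7 libraries were lower than any library of another group. The log2 fold change was -2.06 ± 0.46, adjusted p = 7.20e-05, in S+P C7 vs Sensitized, -1.82 ± 0.46, adjusted p = 0.00142, in S+P C7 vs S+P C4 and -1.68 ± 0.49, adjusted p = 0.00222, for S+P C5 vs N+P C5. Without Sensitized replicates 3 and 4 the first was -0.85, adjusted p = 0.115, and not called. Sensitized vs Naive gave -0.74 ± 0.49, adjusted p = 0.346, and without those 2 libraries -1.94, adjusted p = 2.36e-05, which was called. S+P C7 differed from S+P C5 by -1.16 ± 0.46, adjusted p = 0.123, not called, with the higher value in S+P C5 for each of the 4 replicate numbers. With the replicate number as a block this difference was called (-1.23, adjusted p = 5.62e-08), as it was with the compared groups alone (-1.16, adjusted p = 0.0322) and without S+P C7 replicate 1 (-1.70, adjusted p = 0.00183). The differences of S+P C7 from S+P C4 and of S+P C5 from N+P C5 were called under every alternative run.

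The intron peak of Cblb at +112.1 kb (chr16:51963131-51964340), which contains the fifth sequence above, was lowest in S+P C7. Naive libraries held 939.5, 929 and 1114, Sensitized 493, 538, 974 and 1022, and S+P C4 762, 714, 337 and 302. S+P C5 libraries held 633, 658, 531 and 369, and S+P C7 372, 286, 172 and 134. S+P C7 lay below Sensitized in every library, and overlapped with S+P C4 and, in 1 library each, with S+P C5. The peak closed against Sensitized (-1.65 ± 0.32, adjusted p = 2.77e-06) and against S+P C5 (-1.18 ± 0.32, adjusted p = 0.00724), in both under every alternative run. The first was -1.10, adjusted p = 0.0365, without Sensitized replicates 3 and 4. Without that pair Sensitized was lower than Naive (-0.95, adjusted p = 0.0756, called), and with it the difference was -0.39 ± 0.34, adjusted p = 0.497. Against S+P C4 it closed as well (-1.12 ± 0.32, adjusted p = 0.00491), but not without S+P C4 replicate 1 (-0.90, adjusted p = 0.108).

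Farther upstream, the Cblb peak at -311.2 kb (chr16:51539918-51540845) held 299, 229 and 314 in Naive, 289.8, 359 and 340.3 in N+P C5, and 53.1, 95.7, 214 and 208 in Sensitized. S+P C4 libraries held 252, 118, 82.0 and 108, S+P C5 159, 115, 124 and 86.6, and S+P C7 67.2, 69.8, 69.6 and 45.8. Every library of grafted mice but S+P C4 replicate 1 was below every library of mice without a graft. The peak was in both N+P lists and no other, and its difference for S+P C5 vs N+P C5 (-1.44 ± 0.37) is given without a p. The log2 fold change was -0.97 ± 0.37, adjusted p = 0.0526, in Sensitized vs Naive, where it was -1.93 without Sensitized replicates 3 and 4. The Sensitized vs Naive call was lost without Naive replicate 1 or 3 or Sensitized replicate 1 or 2 (-0.70 to -0.93), at an adjusted p of 0.05 and with the compared groups alone (-0.98, adjusted p = 0.183). S+P C7 was lower than Sensitized (-1.19 ± 0.36, adjusted p = 0.00334), but not called without Sensitized replicates 3 and 4 (-0.24, adjusted p = 0.663). S+P C7 was also lower than S+P C4 (-1.12 ± 0.36, adjusted p = 0.0158) and S+P C5 (-0.96 ± 0.36, adjusted p = 0.0882). The former was not called without S+P C4 replicate 1 (-0.72 on the log2 scale), and the latter was not called by edgeR (adjusted p = 0.148) or without S+P C5 replicate 1, 2 or 3 or S+P C7 replicate 2, 3 or 4 (-0.79 to -1.01).

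At -340.2 kb (chr16:51510533-51512214) the mean was 1809 ± 79.7 in Naive (SD, n = 3), 1402 ± 354 in Sensitized and 729 ± 246 in S+P C7 (SD, n = 4 each). The peak closed in S+P C7 vs Sensitized (-0.95 ± 0.28, adjusted p = 0.0036), but not without Sensitized replicates 3 and 4 (-0.65, adjusted p = 0.188). That call was also lost without Sensitized replicate 3 or 4 or S+P C7 replicate 3 or 4 (-0.75 to -0.89) and with loess offsets (-0.90, adjusted p = 0.00675). At -223.7 kb (chr16:51627332-51628397) the mean was 709 ± 119 in N+P C5 (SD, n = 3) and 336 ± 106 in S+P C5 (SD, n = 4), and the peak closed between these groups (-1.07 ± 0.36, adjusted p = 0.00698) under every alternative run.

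**Figure D4:**
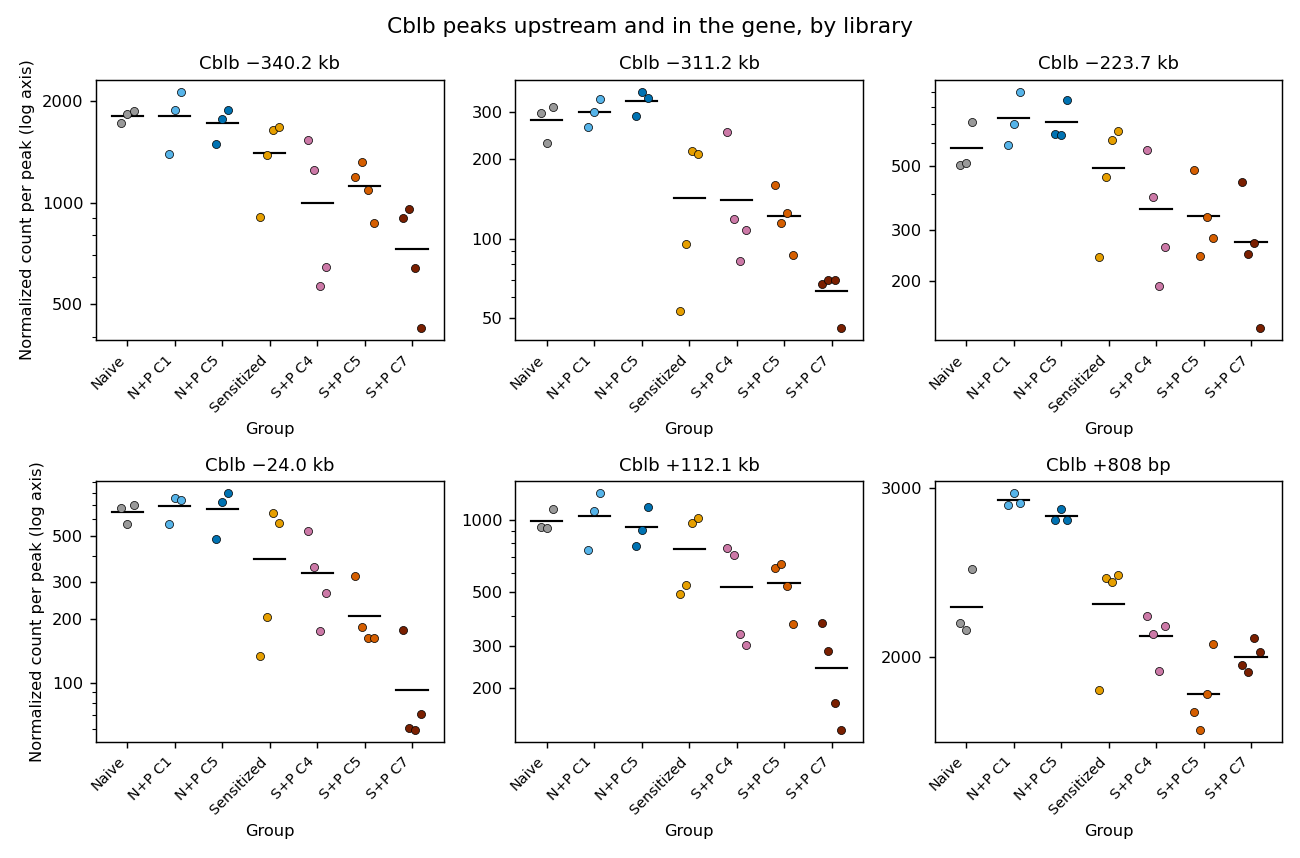
Normalized count per library (log axis) in the 5 Cblb peaks that closed and, last, in the Cblb start-site peak at +808 bp, by group, with a point for each library and a line for the group mean. S+P C7 has the lowest mean in each of the 5, and the start-site peak is highest in N+P C1 and N+P C5.

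The Cblb start-site peak (chr16:51850962-51853830) was more open than 99.1% of peaks and moved by less than the fold threshold. It held 2168, 2135 and 2467 in Naive, 2880, 2961 and 2896 in N+P C1, and 2775, 2852 and 2778 in N+P C5. Sensitized libraries held 1846, 2418, 2392 and 2433, S+P C5 1752, 1678, 1831 and 2063, and S+P C7 1961, 1927, 2091 and 2023. Every N+P library lay above every Naive and every S+P C5 library. N+P C1 was higher than Naive (0.37 ± 0.09, adjusted p = 0.0278), as was N+P C5 (0.31 ± 0.09, adjusted p = 0.0487), while S+P C5 was lower than Sensitized (-0.31 ± 0.08, adjusted p = 0.00133), by -0.21, adjusted p = 0.154, without Sensitized replicates 3 and 4. The difference between the C5 effects was -0.62 ± 0.12, adjusted p = 0.000139.

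Egr2 at -51.9 kb (chr10:67319191-67319593), which contains the third sequence above, had the widest range of group means of the 45 peaks, 4.09 on the log2 scale. It held 12.4, 9.83 and 20.2 in Naive, 19.9, 23.6 and 18.8 in N+P C1, and 41.2, 30.1 and 26.4 in N+P C5. Sensitized libraries held 180.5, 238, 55.6 and 81.4, and S+P C4 68.0, 110.3, 171 and 166. The S+P C5 libraries gave 216, 226, 222 and 228, and S+P C7 258, 216, 248 and 239. Every library of grafted mice was above every library of mice without a graft.

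At this Egr2 peak Sensitized exceeded Naive (3.25 ± 0.43, adjusted p = 2.17e-12), called under every alternative run with values from 1.37 to 3.82. The peak was in the S+P C5 list alone, so its differences involving S+P C5, or S+P C7 of the same history, are given without a p. S+P C5 differed from N+P C5 by 2.77 ± 0.40, and by 0.10 with loess offsets. The mean of the peak was above that of 1.04% of peaks. S+P C7 was higher than Sensitized by less than the fold threshold (0.79 ± 0.34). This difference was 0.20 without Sensitized replicates 3 and 4, the lowest of the 4, and loess offsets turned it (-0.26). It was 0.95 without Sensitized replicate 1 and 1.18 without replicate 2, both past the call thresholds. S+P C5 differed from Sensitized by 0.69 ± 0.34, not called, by 1.08 without Sensitized replicate 2, which was called, and by 0.09 without Sensitized replicates 3 and 4. The interaction was -0.49 ± 0.58, not called, and with loess offsets it was called at -1.27. Over the 25 libraries the peaks with the most similar pattern were nearest to Cd47 (Pearson's r = 0.987), Srsf7, Lmnb1, Vrk1 and Bhlhe40 (r = 0.983 or above). Among the listed genes the most similar was Cblb at +95.0 kb (r = 0.919). These correlations describe values that share libraries and depth.

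Egr2 at -37.7 kb (chr10:67333047-67334166) was highest in S+P C5. It held 194, 208 and 229.6 in Naive, 173, 219 and 219 in N+P C5, 264, 335, 195 and 235 in Sensitized, and 201, 276, 197 and 162 in S+P C4. S+P C5 libraries held 386, 516, 427 and 404, and S+P C7 310.4, 511, 355 and 283. All 4 S+P C5 libraries were above every library of the groups other than S+P C7. The peak entered the table through the S+P C5 list alone, so this order is partly set by that choice and the differences are given without a p. They were 1.09 ± 0.22 from N+P C5 and 1.05 ± 0.21 from S+P C4, both past the call thresholds under every alternative run. From Sensitized the difference was 0.75 ± 0.20, under the fold threshold, and 0.53 without Sensitized replicates 3 and 4.

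The other Egr peaks were not called. The Egr2 start-site peak stayed between 2099 and 3050 in every library, with a range of log2 group means of 0.33. The 3 Egr1 peaks had ranges from 0.18 to 0.66, and the 5 Egr3 peaks from 0.26 to 0.98. The widest of these, singled out after its values were seen, was Egr3 at -19.6 kb, with a mean of 304 ± 35.5 in Naive (SD, n = 3), 458 ± 136 in Sensitized and 302 ± 35.3 in S+P C5 (SD, n = 4 each). It was higher in Sensitized than in Naive (0.59 ± 0.23) and lower in S+P C5 than in Sensitized (-0.60 ± 0.22, adjusted p = 0.0296), both under the fold threshold. The peak was in the lists of Sensitized, S+P C5 and S+P C7 alone, so its difference from Naive is given without a p. Its Sensitized libraries held 619, 522, 345 and 346, with replicates 1 and 2 above the other pair. Without replicates 3 and 4 both differences were called, at 0.90 over Naive and -0.92, adjusted p = 0.00189, for S+P C5.

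The single peaks of Rnf128, Itch and Ndrg1 lie at transcript starts. Rnf128 held 146, 153 and 176 normalized counts in Naive, 131, 196 and 168 in N+P C5, 219, 320.1, 229 and 261 in Sensitized, and 319.6, 329, 281 and 258 in S+P C5. Every Sensitized library was above every Naive library (0.69 ± 0.18, adjusted p = 0.00204), and every S+P C5 library above every N+P C5 library (0.85 ± 0.19), both under the fold threshold. The peak was in the S+P C5 list alone, so the second difference is a description with no p. It was called without N+P C5 replicate 2 (0.99) or S+P C5 replicate 4 (0.92) and with total-count size factors (0.91). Ndrg1 went the other way, with 634, 478 and 485 in Naive and 238, 291, 405 and 334 in Sensitized (-0.74 ± 0.16, adjusted p = 7.85e-05, under the fold threshold). It was called without Sensitized replicates 3 and 4 (-1.01, adjusted p = 3.08e-08). Itch stayed between 167 and 379.6, and was in the lists of S+P C5 and S+P C7 alone. Its S+P C7 libraries differed from Sensitized by 0.44 ± 0.17, under the fold threshold, and by 0.29 without Sensitized replicates 3 and 4.

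**Figure D5:**
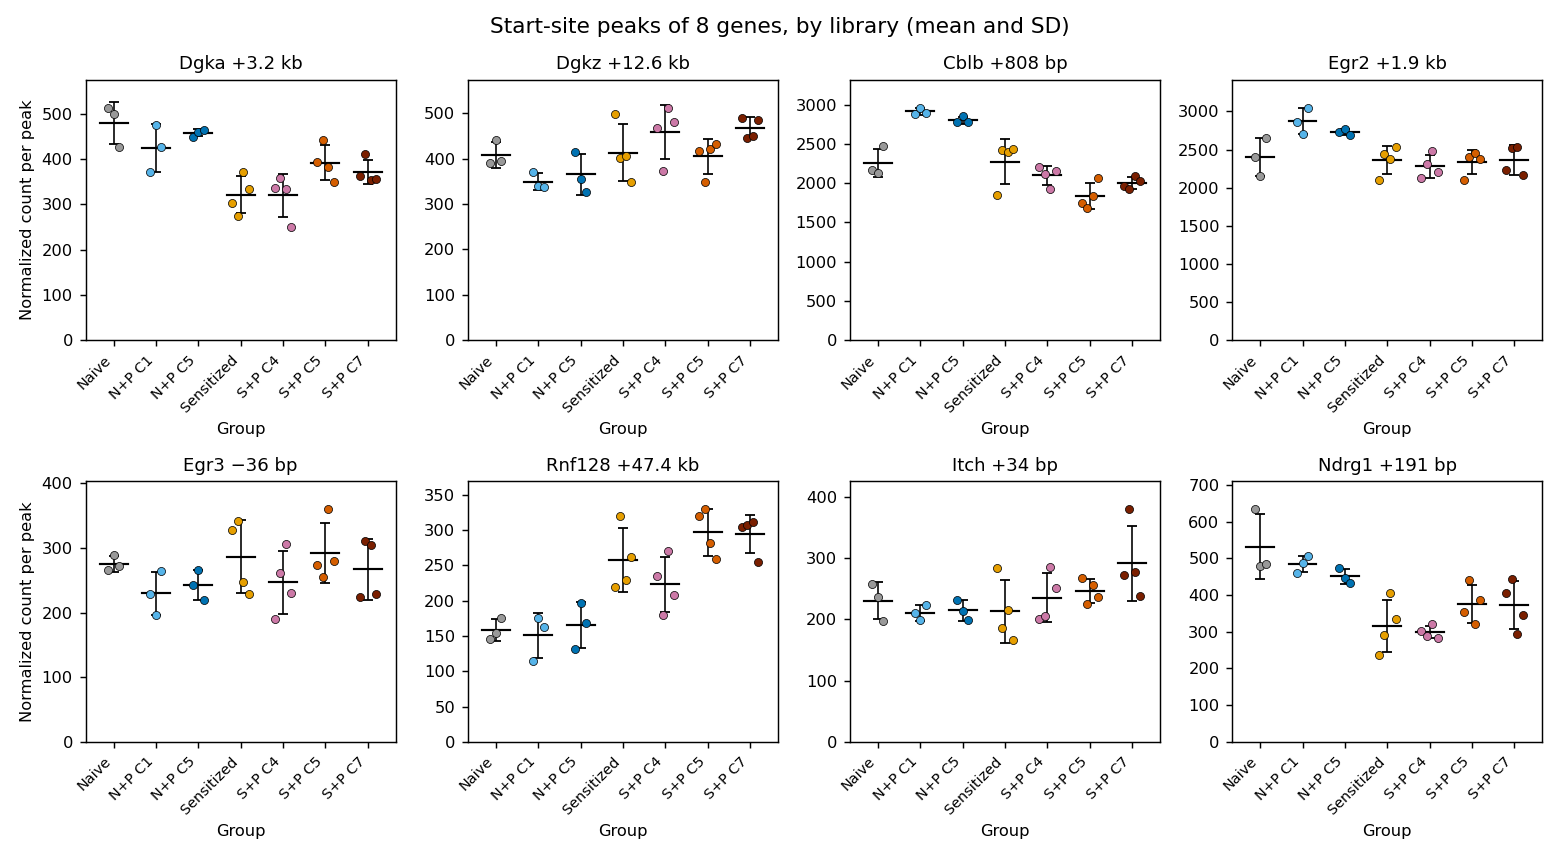
Normalized count per library (axis from 0) in the start-site peaks of 8 genes, by group, with a point for each library and the group mean with its SD. None of the 8 was called with all libraries in, and in Sensitized Rnf128 lies above Naive while Ndrg1 and Dgka lie below.

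Other genes of these pathways were read as lists. In the diacylglycerol list (14 genes of kinases, RasGRP, PKC and phospholipase C, 12 with a peak, 61 peaks), 12 peaks were called in S+P C7 vs Sensitized, 2 opened and 10 closed (19.7%, beside 11.9% of all peaks and 24.6% of peaks outside promoters), with a median log2 fold change of -0.06 over the 61. In S+P C5 vs Sensitized 6 were called, 1 opened and 5 closed (9.84%, beside 6.74% of all peaks and 14.7% of peaks outside promoters), with a median of -0.14. Without Sensitized replicates 3 and 4 the counts were 6 (9.84%, beside 6.96% of all peaks) and 1 (1.64%, beside 3.25%). Prkcq, which encodes protein kinase C theta, had 4 of 14 peaks called in S+P C7 vs Sensitized, all closed, with log2 fold changes from -1.63 to -1.13. Of these 4, 2 were called without Sensitized replicates 3 and 4 (-1.02 and -0.99). Prkch, which encodes protein kinase C eta, had 2 of 17 peaks opened there, the only ones of the list that did, and 2 closed. Both opened peaks were in the lists of S+P C5 and S+P C7 alone, so their values are given without a p. The intron peak at chr12:73687932-73688484 had a difference of 1.46 ± 0.43, and of 0.80, not called, without those 2 libraries. The one at chr12:73757524-73758010 had 1.35 ± 0.26, and 0.92, called, without them. Rasgrp1, which encodes the diacylglycerol-bound activator of Ras, had 2 of 12 peaks closed there, at -78638 bp (-2.06 ± 0.36, adjusted p = 1.72e-07) and at -75040 bp (-0.93 ± 0.11, adjusted p = 2.68e-14), of which the first was called without those 2 libraries (-1.39) and the second was not (-0.85). These genes were named after their values were seen.

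In the list of ubiquitin ligases and their partners (9 genes, 8 with a peak, 13 peaks), 2 peaks opened in S+P C5 vs Sensitized (15.4%, beside 6.74% of all peaks and 14.7% of peaks outside promoters), with a median of 0.13 over the 13. They lie in introns of Nedd4l, which encodes a Nedd4-family ligase, and of Ndfip1, which encodes an adaptor of Itch. The Nedd4l peak had a mean of 21.9 ± 4.17 in Sensitized, 384 ± 139 in the S+P C5 libraries and 285 ± 130.2 in those of S+P C7 (SD, n = 4 each). It was in the S+P C7 list alone, and differed from Sensitized by 4.13 ± 0.37 in the C5 cells and by 3.70 ± 0.38 in the C7 cells of S+P mice, given without a p. Another Nedd4l peak, 534 bp from the gene start, went the other way, and closed in S+P C7 vs Sensitized (-1.20 ± 0.13, adjusted p = 1.87e-18) and for S+P C5 vs N+P C5 (-0.996 ± 0.13). The second difference is given without a p, because this peak was in lists of mice without a graft alone. The Ndfip1 peak had a mean of 153 ± 32.3 in Sensitized and 297 ± 74.2 in S+P C5 (0.95 ± 0.29), and was in the S+P C5 list alone, as was the Nab1 peak named next. In the list of Egr partners and other anergy genes (10 genes, 9 with a peak, 24 peaks), 1 opened and 2 closed in S+P C5 vs Sensitized (12.5%, beside 6.74% of all peaks and 14.7% of peaks outside promoters), with a median of -0.18. The one that opened was nearest to Nab1, which encodes a corepressor of Egr factors (1.57 ± 0.28), and the others were at Tle4 and Nrp1. These genes too were named after their values were seen. With Sensitized replicates 3 and 4 left out, S+P C5 vs Sensitized gave 3.97 at the Nedd4l intron peak and 1.67 at the Nab1 peak, both called, and 0.77 at the Ndfip1 peak, not called. The peaks at Tle4 and Nrp1 were not called then.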

How the data were processed

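ATAC-seq was performed on 25 sorted CD8+ T cell libraries, sequenced in 1 run. The authors trimmed reads with cutadapt 3.4, aligned them to GRCm39 with Bowtie2 2.2.9, kept unique reads, removed duplicates with Picard 2.21.8, called peaks per library with Genrich 0.6.1 in its ATAC mode, combined the libraries of each group with ChIP-R, merged the 7 lists with bedtools 2.27.1 and counted reads per merged peak with deepTools. The deposited table holds raw read counts, not normalized. The deposited group lists hold a ChIP-R score and, read from the values as such, a q-value, both pooled over a group's libraries, and were used here only to ask in which lists a peak occurs. Peaks called per group on these libraries are not independent of the groups compared. Columns of per-sample values left out numbered 0.

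Peaks were assigned to genes with GENCODE vM39. Differences were tested with DESeq2 1.42.0 (R 4.3.3, Wald test, median-of-ratios size factors, 1 coefficient per group over all 25 libraries) and called with the study's thresholds, a log2 fold change beyond 0.9 in either direction at an adjusted p below 0.1. The scripts were tested on simulated data. Library totals of 2430890 to 25419715 counts (median 8197552) limit the precision of weak peaks most. Replicates differed by more than sampling noise (chi-square over degrees of freedom at least 2.81 for every pair in a group). Alternatives were edgeR 4.0.16 with TMM, total-count size factors, loess offsets from limma 3.58.1, an adjusted p of 0.05, DESeq2's filter off, a filter of 50 counts in 3 libraries (which kept all 13527 peaks), the compared groups alone, nearest start only, each library left out, Sensitized replicates 3 and 4 left out together, and a replicate block. The block was the replicate number in the labels, which do not say whether it marks a mouse.

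The genes, pathway lists, motifs, tests and alternatives were chosen with earlier results of these data known. Peaks named are those at a start site and those called in at least 1 of 12 comparisons, and for the peak with the widest range the 5 other peaks most like it. Dgka at +0.3 and +1.8 kb, Egr3 at -19.6 kb, Cblb at +116.1 kb and peaks of the pathway lists were named after their values were seen. A peak was in a group's list if it overlapped an interval of that list. Sequences were read from GRCm39. Python 3.11.15, pandas 2.3.3, numpy 2.4.6 and matplotlib 3.10.9 were used.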

Additional observations from a re-analysis of the deposited data

Results flagged for a closer look

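In 6 of 80 sets of 4 libraries, 1 library stood far from the other 3, where chance flags about 1 in 20. Cblb at -24.0 kb held 178.6 normalized counts in S+P C7 replicate 1, with 59.7 to 71.2 in the others, and 321.2 in S+P C5 replicate 1, with 163.1 to 183.7 in the others. Cblb at -311.2 kb held 45.8 in S+P C7 replicate 4, beside 67.2 to 69.8. The Cblb start-site peak held 1846 in Sensitized replicate 1, beside 2392 to 2433. The Dgka peak at +3.2 kb held 412 in S+P C7 replicate 2, beside 354.6 to 363.2, and Rnf128 held 254.9 in S+P C7 replicate 4, beside 303.6 to 311.5. The C5 effect of pregnancy differed between mice with and without a graft by 1.03 on the log2 scale at Dgkh at +33.7 kb, whose high S+P C5 values were known beforehand, and by 1.71 at Cblb at +76.8 kb, which the authors listed as a peak in S+P C5 and S+P C7 alone. Neither was called without Sensitized replicates 3 and 4.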

How the results depend on the processing

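Of 36 pairs of a named peak and a comparison, 15 stayed called under every alternative run for them, 20 lost the call in at least 1, and Dgkh at +45.1 kb for S+P C5 vs N+P C5 reversed with loess offsets (-0.31). Counts of called peaks below include Dgkh at +33.7 kb, and the share of all peaks called in the same setting follows each in parentheses. With loess offsets 3 of 45 peaks were called in Sensitized vs Naive (7.9%), 0 in S+P C5 vs Sensitized (6.24%), 3 in S+P C7 vs Sensitized (10.5%) and 8 for S+P C5 vs N+P C5 (15.1%), where the calls of Egr2 at -51.9 kb and Dgkh at +33.7 and +45.1 kb ended. They also called 1 peak in S+P C4 vs Sensitized (0.991%), Dgkh at +33.7 kb (-0.92), which was not called before, and 1 in the interaction (6.51%), Egr2 at -51.9 kb (-1.27), while both earlier interaction calls were lost. Among values under the fold threshold, Egr2 at -51.9 kb in S+P C7 vs Sensitized reversed with loess offsets (-0.26). Without both Sensitized libraries nearest to N+P C5 the count was 11 in Sensitized vs Naive (15.2%), 1 in S+P C4 vs Sensitized (2.31%), 2 in S+P C5 vs Sensitized (3.25%), 1 in S+P C7 vs Sensitized (6.96%) and 0 in the interaction (2.36%). An adjusted p of 0.05 left 1 peak in S+P C5 vs Sensitized (6.42%), 1 in S+P C7 vs S+P C5 (2%) and 0 in the interaction (4.5%), the compared groups alone left 1 in S+P C5 vs Sensitized (6.25%) and 5 in S+P C7 vs Sensitized (11.8%), with Cblb at +76.8 kb lost in both, and edgeR left 1 in S+P C7 vs S+P C5 (2.04%). With 1 library left out, counts ran from 4 to 6 in Sensitized vs Naive (6.69% to 10.9%), 0 to 1 in N+P C1 vs Naive (0% to 1.18%), 0 to 2 in N+P C5 vs Naive (0% to 1.16%, the 2 without Naive replicate 3), 0 to 1 in S+P C4 vs Sensitized (0.488% to 1.94%, the 1 without S+P C4 replicate 1) and 1 to 5 in S+P C5 vs Sensitized (4.61% to 9.29%, the 5 without Sensitized replicate 2 beside 7.88%). They ran from 4 to 9 in S+P C7 vs Sensitized (10.3% to 14.5%), 10 to 11 for S+P C5 vs N+P C5 (16.2% to 18.7%), 2 to 4 in S+P C5 vs S+P C4 (3.6% to 6.16%), 2 to 6 in S+P C7 vs S+P C4 (5.75% to 9.59%, the 2 without S+P C4 replicate 1 beside 5.75%) and 1 to 3 in S+P C7 vs S+P C5 (1.3% to 4.47%). In the interaction they ran from 0 to 4 (2.92% to 12%), with 4 without Sensitized replicate 1 (12%), and 0 without Sensitized replicate 4 (3.39%), N+P C5 replicate 3 (4.3%) or S+P C5 replicate 2 (3.7%). The replicate block gave 7 peaks in Sensitized vs Naive (10.9%), 3 in S+P C5 vs Sensitized (6.2%), 6 in S+P C7 vs Sensitized (12.1%), 11 for S+P C5 vs N+P C5 (17.5%), 3 in S+P C5 vs S+P C4 (5.46%), 5 in S+P C7 vs S+P C4 (7.91%), 3 in S+P C7 vs S+P C5 (3.33%) and 0 in the comparisons with 0 before. With it Cblb at -24.0 kb gained a call in S+P C7 vs S+P C5 and in Sensitized vs Naive (-1.30), Egr2 at -51.9 kb in S+P C5 (0.90) and S+P C7 (1.02) vs Sensitized, and Rnf128 for S+P C5 vs N+P C5 (0.92), and Cblb at -311.2 kb in S+P C7 vs Sensitized was not called. The labels do not say that the replicate number marks a mouse. Deviations from group means correlated at 0.0639 to 0.771 in 15 pairs of N+P or S+P subsets with the same number (14 over 0.1, and all 4 of S+P C5 with S+P C7 at 0.522 or above), at -0.759 to 0.363 in 54 pairs of other groups with the same number (10 over 0.1), and in 25 of 30 comparisons of a library with another subset its own number correlated best. The interaction was not fitted with the block. The causes of these changes were not tested.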
